A study of Homo sapiens with 6 samples.

Results

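The 36 genes described here encode subunits of the human proteasome: 7 alpha subunits (PSMA1 to PSMA7), 4 noncatalytic beta subunits (PSMB1 to PSMB4), the 3 standard catalytic beta subunits (PSMB5, PSMB6 and PSMB7), their 3 immunoproteasome counterparts (PSMB8, PSMB9 and PSMB10), 6 ATPases (PSMC1 to PSMC6), 11 further subunits of the 19S cap (PSMD genes) and the PA28 activator pair PSME1 and PSME2. They are a list of symbols, with no threshold on measured values, and all 36 were found among the 27576 genes of the table. Expression was measured by RNA sequencing in Kasumi-1, a human acute myeloid leukaemia cell line that carries the RUNX1-RUNX1T1 fusion. All cells were grown in RPMI1640 with 20% FBS. The control group had 0.5% BSA, a carrier protein, for 72 h, and the other group had recombinant human interleukin-10 (rhIL-10, an anti-inflammatory cytokine that signals through JAK1, TYK2 and STAT3) at 10 ng/ml for 72 h, with 3 libraries in each. Whether the medium with rhIL-10 also held BSA is not stated in the labels. The labels give replicate numbers but do not say whether replicates were separate cultures, and a p-value here reflects only how these libraries vary, which could be technical in origin. A single cell line and a single dose and time were sampled, and protein and peptidase activity were not measured.

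The proteasome is the barrel-shaped protease that degrades proteins tagged with ubiquitin. Its 20S core stacks rings of alpha subunits, which form the gate, on rings of beta subunits, of which PSMB5, PSMB6 and PSMB7 carry the chymotrypsin-like, caspase-like and trypsin-like active sites. The 19S cap recognises tagged proteins, removes ubiquitin, and unfolds the substrate with its ring of ATPases. In cells of the immune system, and after interferon gamma, PSMB8, PSMB9 and PSMB10 replace the standard catalytic subunits, and PA28 can dock in place of a 19S cap. These variants change which peptides are produced for display on MHC class I. Proteasome genes are transcribed together under NFE2L1 (NRF1), which binds antioxidant response elements in their promoters, and blood cancers as a class are sensitive to proteasome inhibitors.

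Each library held 20750115 to 24222897 reads, recovered from the deposited values, and each of the 36 genes held 52 to 13267 reads per library. Values below are reads divided by 1 size factor per library ("normalised reads"), and levels compared between genes are normalised reads per kilobase of the gene's principal transcript. The 8 markers of myeloid leukaemia cells checked (KIT, CD34, MPO, CD33, PTPRC, SPI1, RUNX1 and ELANE) were above 0 in all 6 libraries. Their summed values were 147337 to 243479, mostly from MPO (66945 to 160649) and KIT (29296 to 54533). Replicate 1 differed in ELANE, at 140 in control and 159 in IL-10, against 4.70 to 16.1 elsewhere. Of 10 lymphocyte markers 8 to 10 were above 0 (summed values 3149 to 5066, highest in IL-10 replicate 2). Of 10 epithelial or stromal markers, 8 of them in the table, 6 to 8 were above 0 (1661 to 2002, lowest in IL-10 replicate 2). That last sum was mostly EPCAM (1487 to 1942). The keratins went the other way: KRT8 was 156 in control and 87.0 in IL-10 replicate 2, against 4.28 to 11.2 elsewhere. KRT18 was 19.9 and 11.8 against 0 to 1.07, and KRT19 52.7 and 42.3 against 16.8 to 32.3. CDH1, COL1A1, PECAM1 and VWF were low, at 0 to 57.9. Replicate 2 of both groups stood apart. Each of 13 hepatocyte genes was above 0 in both replicate 2 libraries, against 4 or 5 of them in each of the other 4 libraries, and their sum without SERPINA1 (which myeloid cells also express) was 1188 in the control and 554 in the IL-10 library of that number, against 15.0 to 29.4 elsewhere. IL-10 replicate 2 stood apart further: its transcripts rich in G and C read higher than in the other libraries, as described for the proteasome genes below. Over the proteasome genes no pair of libraries agreed within counting noise, with a mean squared z of 3.06 for the closest pair (replicate 3 of each group).

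Upstream sequences are shown for 3 of the genes because they hold the motif most often tied to joint transcription of proteasome genes and because these genes recur in the results: PSMD3 had the largest excess in IL-10 replicate 2, PSMB3 the largest difference among noncatalytic beta subunits, and PSME1 kept the direction of its difference under every alternative tried. Capitals mark the antioxidant response element core (TGACNNNGC, the binding core for NFE2L1 and NFE2L2 with small MAF partners), the STAT element (TTCNNNGAA) and the CCAAT box bound by NF-Y, whose reverse-strand copy reads ATTGG. The marked motifs do not overlap in these windows. All lie on the plus strand of GRCh38.p14 (RefSeq), upstream of the gene's start and outside its first exon: PSMD3 at chr17:39980557-39980796, PSMB3 at chr17:38752491-38752735 and PSME1 at chr14:24135944-24136157.
PSMD3: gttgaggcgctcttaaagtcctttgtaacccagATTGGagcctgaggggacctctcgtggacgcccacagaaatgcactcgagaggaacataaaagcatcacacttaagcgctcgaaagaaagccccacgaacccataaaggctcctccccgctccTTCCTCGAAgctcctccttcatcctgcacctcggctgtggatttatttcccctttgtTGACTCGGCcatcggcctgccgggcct
PSMB3: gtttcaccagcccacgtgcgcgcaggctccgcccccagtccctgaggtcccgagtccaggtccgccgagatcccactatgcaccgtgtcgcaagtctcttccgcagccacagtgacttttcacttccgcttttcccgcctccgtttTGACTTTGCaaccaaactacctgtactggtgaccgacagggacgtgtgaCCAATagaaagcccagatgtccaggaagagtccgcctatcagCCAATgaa
PSME1: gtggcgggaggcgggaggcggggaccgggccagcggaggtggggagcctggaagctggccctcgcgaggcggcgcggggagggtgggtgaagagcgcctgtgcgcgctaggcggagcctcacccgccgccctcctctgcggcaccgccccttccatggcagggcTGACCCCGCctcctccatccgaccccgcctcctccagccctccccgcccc

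In the 250 bases upstream of the start, searched on both strands in the 31 genes matched to the RefSeq promoter table (all but PSMA7, PSMB1, PSMB6, PSMB7 and PSMD4), the antioxidant response core was present in 8 of 31 (25.8%), against 13.2% of 27305 genes. These were PSMA4, PSMB3, PSMB9, PSMC5, PSMD3, PSMD12, PSME1 and PSME2. In PSMD3 it began 37 bases before the RefSeq start, in PSME1 86 and in PSMB3 104. The searched windows run past the printed ends, into annotated exon, by 10 bases in PSMD3, 36 in PSME1 and 5 in PSMB3. The distances are therefore not counted from the end of the printed sequences. The STAT element was present in 5 of 31 (16.1%, against 8.09% of all genes), namely PSMA2, PSMB5, PSMB8, PSMC4 and PSMD3. A pair of GAAA copies 2 bases apart, the core of the element bound by interferon regulatory factors, was present in 4 of 31 (12.9%, against 3.71%), among them PSMB10 and PSME2, with the copy 21 and 28 bases before the start. Many searched windows cover annotated exon, so a match need not lie outside transcribed sequence. In the windows with the GAAA pair exon filled, of 250 bases, 237 in PSMB10, 250 in PSME2, 39 in PSMB4 and 0 in PSMA4. In those with the antioxidant response core it filled 250 in PSMA4 (another window), PSMC5 and PSME2, 81 in PSMB9 and 50 in PSMD12. In PSME1, PSMD3 and PSMB3 it filled the 36, 10 and 5 given above. In the windows with the STAT element it filled 250 in PSMA2, PSMB5 and PSMB8, 160 in PSMC4 and 10 in PSMD3. CCAAT was present in 15 of 31 (48.4%, against 37.0%). These 4 motifs were kept from a wider search of other patterns, made with values known, and a match is a description of letters, not of binding.

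Coding sequence is shown for 4 genes because the largest measured differences followed base composition. Each line holds the central 90 coding bases of the principal transcript (GENCODE 29, GRCh38), with G and C in capitals. PSMC4 and PSMC6 are neighbours in the same ATPase ring, and in both the window covers the codons of the ATP-binding loop (Walker A), as it does in all 6 ATPases. The windows begin at different points relative to the loop. Their counts of G or C, 55 and 43 of 90 bases, therefore include different flanking codons. PSMC4 and PSMC6 moved in opposite directions in IL-10 replicate 2. PSMB10 (59 of 90) and PSMD12 (28 of 90) stand toward the ends of the range. PSMC4 lies on the plus strand at chr19:39974738-39974827 within 1 exon. The others cross introns: PSMC6 within chr14:52713956-52718243 (plus strand), PSMB10 within chr16:67935628-67935982 (minus strand) and PSMD12 within chr17:67347182-67347356 (minus strand).
PSMC4: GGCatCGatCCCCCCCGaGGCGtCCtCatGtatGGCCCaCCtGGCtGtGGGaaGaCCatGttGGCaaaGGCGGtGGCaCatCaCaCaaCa
PSMC6: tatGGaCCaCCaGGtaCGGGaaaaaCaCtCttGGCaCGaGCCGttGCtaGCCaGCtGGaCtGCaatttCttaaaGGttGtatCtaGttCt
PSMB10: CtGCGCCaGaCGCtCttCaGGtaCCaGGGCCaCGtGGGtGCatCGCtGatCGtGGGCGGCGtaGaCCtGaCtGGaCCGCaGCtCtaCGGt
PSMD12: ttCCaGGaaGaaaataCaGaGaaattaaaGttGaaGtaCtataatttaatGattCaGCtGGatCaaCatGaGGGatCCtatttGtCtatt

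All 36 proteasome genes were expressed in Kasumi-1, at levels that ran from 50.9 normalised reads per kilobase for PSMA2 to 7995 for PSMA7 over the 6 libraries. In control cells the noncatalytic beta subunits had the highest median level of the sub-complexes, 4221 ± 320 normalised reads per kilobase (SD, n = 3). The standard catalytic subunits followed at 2144 ± 335, the ATPases at 1843 ± 269, the other 19S subunits at 1812 ± 246, PA28 at 1349 ± 118, the alpha ring at 696 ± 108 and the immunoproteasome subunits at 275 ± 52.6. The standard catalytic subunits, ATPases and other 19S subunits were apart by no more than about their spread over libraries. The alpha ring median was in each library the value of PSMA5, whose transcript of 3729 bases holds 723 coding bases. The levels of PSMA1, PSMA2, PSMA6 and PSMB10 are uncertain, because read-through genes overlap them, as given below. The low place of the alpha ring is therefore uncertain too. With all exons of a gene merged as its length the control medians were lower (4221 became 2013, and 275 became 88.1), and with coding length alone the alpha ring was at 2996. The other 19S subunits fell below PA28 with merged exons (518 against 692). With coding length they lay above the standard catalytic subunits (2734 against 2547). The order of the sub-complexes between the highest and the lowest thus depends on the length used.

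No proteasome gene differed between IL-10 and control cells at an adjusted p under 0.05 (limma on log2 of value plus 1, Benjamini-Hochberg over 21946 genes). Nor did any other gene pass: 0% of all genes tested were called. At an unadjusted p under 0.05 limma counted 344 genes (1.57%), and 0 of the 36. With edgeR and with DESeq2 on the recovered reads 0 genes passed the adjusted threshold and 80 passed unadjusted in each. In no proteasome gene did all IL-10 libraries lie above all control libraries (2.85% of all genes) or all below (3.02%). Because the cells were sequenced in bulk, fewer cells of a type and less RNA per cell cannot be told apart.

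The differences were small and mostly positive: the log2 difference was above 0 in 26 of 36 genes, against 52% of all genes, with a median of 0.14 against 0.02. It ran from -0.22 for PSMC6 to 0.25 for PSMB10. The 95% interval of a gene reached 0.47 to either side at the median (0.34 to 0.76 over the 36), so smaller changes in a typical subunit could not be told from 0. These intervals come from the fit without the replicate block and are not adjusted for the number of genes tested. A change of that size would therefore not necessarily pass the adjusted threshold. The median changed with the replicate 2 libraries. Without IL-10 replicate 2 it was -0.07, with 7 of 36 genes above 0, while control replicate 2, high in most of these genes, stayed in. Without both replicate 2 libraries it was 0.02, with 25 of 36 above 0. With every library scaled to an equal total, which moved the median of all genes to -0.08, the median of the 36 was 0.03, with 20 above 0.

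**Figure D1:**
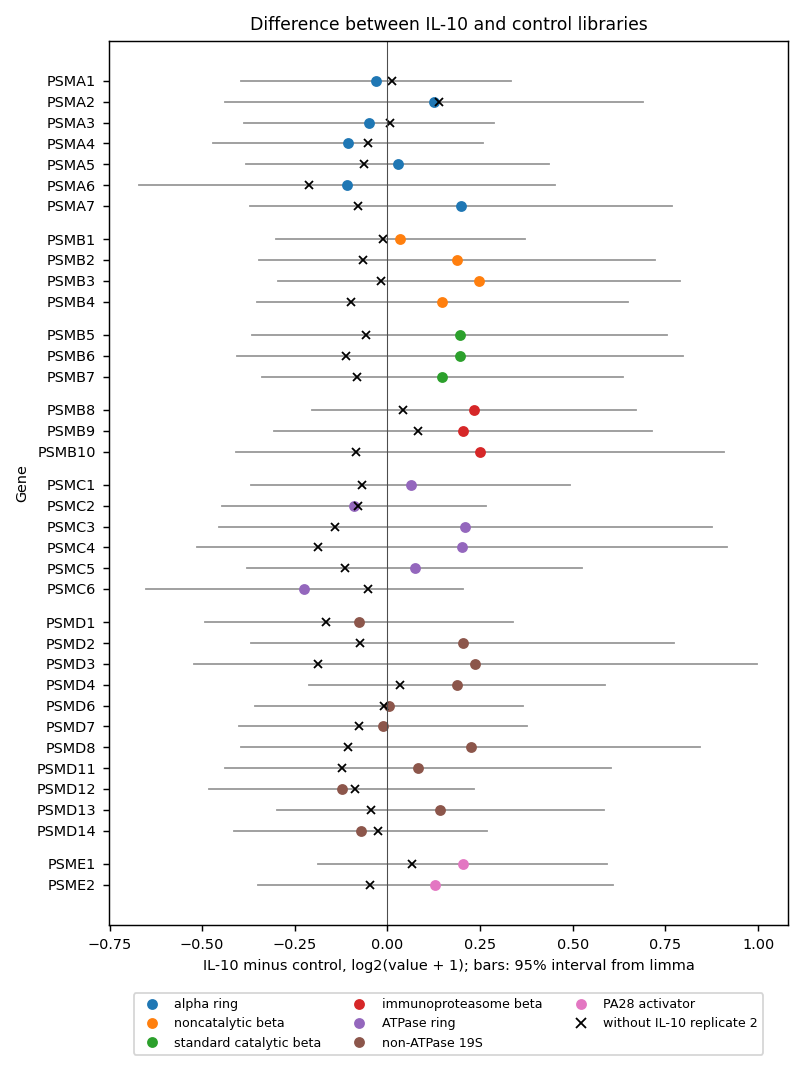
Difference between IL-10 and control libraries for each of the 36 genes, as the mean difference in log2(value + 1); points are coloured by sub-complex, bars are limma's 95% intervals, and crosses give the value without IL-10 replicate 2. Every bar crosses 0, and the crosses gather near or below 0, with a median of -0.07 against 0.14 for the points. Control replicate 2, high in most of these genes, stays in for the crosses.

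Subunits of the alpha ring, which build the gate of the core, had a median log2 difference of -0.03, with 3 of 7 above 0 and 0 of 7 past the test. PSMA7 was the most highly expressed per kilobase, at 7313 ± 1086 in control and 8677 ± 3139 in IL-10 cells (SD, n = 3 each). Its normalised reads were 6808, 8521 and 6521 in control replicates 1, 2 and 3 and 7415, 12196 and 6315 in the IL-10 replicates. Both replicate 2 libraries were the highest of their group, the IL-10 one most of all, and the groups overlapped (log2 difference 0.20, 95% interval -0.37 to 0.77, adjusted p = 0.982, limma).

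PSMA3 and PSMA4, low in G and C at 40.7% and 42.1% of the transcript, went the other way in that library. PSMA3 read 2281, 2367 and 2228 in the control libraries and 2428, 2043 and 2185 in IL-10 replicates 1, 2 and 3. PSMA4 read 7769, 8916 and 7517 in control and 8357, 6925 and 7206 in IL-10. In both genes IL-10 replicate 2 was the lowest of the 6 libraries while the groups overlapped, with log2 differences of -0.05 and -0.11.

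PSMA2 was the lowest of the 36 per kilobase. Its normalised reads were 90.4, 57.7 and 70.3 in control and 88.7, 76.4 and 70.3 in IL-10 cells, with control replicate 2 lowest and the groups overlapping (log2 difference 0.12, interval -0.44 to 0.69). PSMA6, singled out after its values were seen, was likewise low, at 62.4, 75.6 and 66.7 in control and 69.5, 72.9 and 49.4 in IL-10. The other 5 alpha genes lay between 491 and 7995 normalised reads per kilobase. The annotation places read-through genes on the same strand over 52.5% of the PSMA2 transcript (AC010132.3), 81.0% of PSMA6 (AL121594.1), 53.2% of PSMA1 (AC018523.2) and 45.3% of PSMB10 (AC040162.1). How reads shared by overlapping genes were counted is not given in the sources used here, so the levels of these 4 genes are uncertain.

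The noncatalytic beta subunits read higher in IL-10 cells in 4 of 4 by the mean, with a median log2 difference of 0.17 and none past the test. PSMB4 was highest of them per kilobase, at 5601 ± 443 in control and 6381 ± 2007 in IL-10 cells. It read 5169.6, 5892 and 5135 in control and 5126, 8383 and 4945 in IL-10 replicates 1, 2 and 3, so that IL-10 replicates 1 and 3 lay below every control and replicate 2 above. PSMB2, lowest of the 4 per kilobase, read 3672, 4608 and 3536 in control and 3873, 6342 and 3598 in IL-10. PSMB3 (chr17:38752736-38764231), whose upstream sequence is printed above, had the largest difference of the 4.

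PSMB3 read 3580.2, 4093 and 3307 in control and 3948, 6248 and 3287 in IL-10 replicates. The lowest and the highest value both belonged to IL-10 libraries. Its log2 difference of 0.25 (interval -0.29 to 0.79, adjusted p = 0.982, limma) became -0.02 without IL-10 replicate 2. Without both replicate 2 libraries it was 0.07.

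The standard catalytic subunits gave the same picture. PSMB5 (chr14:23016543-23035230, minus strand), the chymotrypsin-like site that bortezomib and carfilzomib bind, read 1148, 1326 and 916 in control and 1147, 1811 and 1006 in IL-10 replicates 1, 2 and 3. PSMB6 (chr17:4796144-4798503, plus strand), the caspase-like site, read 1734, 2147 and 1599 in control and 1762, 3184 and 1594 in IL-10. For PSMB7 (chr9:124353466-124415444, minus strand), the trypsin-like site, the values were 5022, 5717 and 4799 in control and 4921, 7884 and 4833 in IL-10. In each of the 3 genes the IL-10 library of replicates 1 and 3 lay close to the control library of the same number, replicate 2 was the highest of each group, and the groups overlapped. Their log2 differences were 0.19, 0.20 and 0.15, and became -0.06, -0.11 and -0.08 without IL-10 replicate 2. Without both replicate 2 libraries they were 0.07, 0.01 and -0.01. Per kilobase, PSMB7 stood at 5285 ± 488 in control, PSMB6 at 2144 ± 335 and PSMB5 at 873 ± 159, levels apart by more than their spread.

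Immunoproteasome catalytic subunits were all present at baseline, PSMB8 at a level like that of its standard counterpart and the other 2 far below theirs. PSMB8 (chr6:32840717-32844703, minus strand), which replaces PSMB5, read 1167, 1236 and 1246 in control and 1260.1, 1866 and 1243 in IL-10. PSMB9 (chr6:32844136-32859585, plus strand), its neighbour in the MHC class II region and the replacement of PSMB6, read 212, 175 and 257 in control and 199.9, 289 and 253 in IL-10. PSMB10 (chr16:67934502-67937087, minus strand), which replaces PSMB7, read 169.6, 165 and 139 in control and 146, 297 and 150.1 in IL-10. IL-10 replicate 2 was the highest library in all 3. In PSMB8 IL-10 replicate 1 also lay above every control and replicate 3 did not, and in PSMB9 and PSMB10 both other IL-10 libraries lay within the control range. PSMB8 ranked first of the 36 by limma's p before adjustment (adjusted p = 0.982), with a log2 difference of 0.23 (interval -0.20 to 0.67). For PSMB9 the difference was 0.20 (-0.31 to 0.71) and for PSMB10 0.25 (-0.41 to 0.91). Without IL-10 replicate 2 the 3 values were 0.04, 0.08 and -0.08, and without both replicate 2 libraries 0.05, -0.06 and -0.05.

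The balance between the immunoproteasome and standard subunits did not shift by more than its spread in any of the 3 pairs, a comparison made without a test. The log2 ratio of PSMB8 to PSMB5 per kilobase was 0.33 ± 0.28 in control and 0.36 ± 0.13 in IL-10 cells (SD, n = 3 each). For PSMB9 to PSMB6 it was -2.97 ± 0.49 and -2.96 ± 0.40, and for PSMB10 to PSMB7 -5.35 ± 0.13 and -5.25 ± 0.18. In control cells PSMB6 was thus 7.84-fold above PSMB9 and PSMB7 40.8-fold above PSMB10 per kilobase of transcript. The second fold is uncertain, because a read-through gene covers 45.3% of the PSMB10 transcript. The scale of length matters for these levels: with merged exons the ratio of PSMB8 to PSMB5 was -0.64 in control and -0.60 in IL-10 cells, so which of the pair is higher is not settled, and that of PSMB9 to PSMB6 was -4.18 and -4.17.

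**Figure D2:**
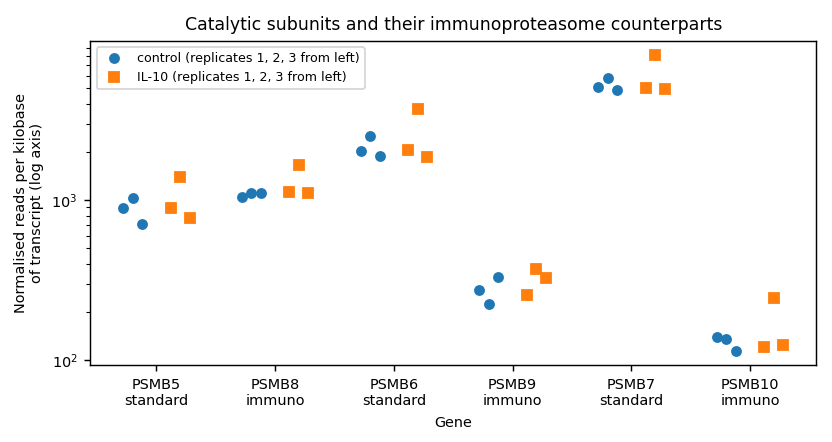
Normalised reads per kilobase of transcript (log axis) for the 3 standard catalytic subunits, each beside its immunoproteasome counterpart; circles are control and squares IL-10 libraries, replicates 1, 2 and 3 from left to right. IL-10 replicate 2 is the highest square in each gene, while PSMB9 and PSMB10 stay well under PSMB6 and PSMB7 in every library.

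The 6 ATPases, which unfold substrates and open the gate, split in direction, with 4 above 0, a median log2 difference of 0.07 and none past the test. PSMC3 was highest per kilobase. It read 4568, 6023 and 4378 in control and 4773, 9305 and 4201 in IL-10. PSMC4 read 3563, 4682 and 3257 in control and 3584, 7455 and 3089.7 in IL-10. Both were highest in IL-10 replicate 2 and lowest in IL-10 replicate 3, with log2 differences of 0.21 and 0.20 and adjusted p of 0.982 each (limma).

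PSMC6 (chr14:52707172-52728587, plus strand) was the mirror image, with 1831, 2168 and 2088 in control and 1972, 1362 and 1934 in IL-10 replicates. IL-10 replicate 2 was the lowest of the 6 libraries by a wide margin, and the other IL-10 values lay within the control range. Its log2 difference of -0.22 (interval -0.65 to 0.20, adjusted p = 0.982, limma) was the most negative of the 36. It was -0.05 without IL-10 replicate 2 and -0.002 without both replicate 2 libraries. PSMC1, lowest of the ATPases per kilobase, read 1065, 1417 and 1242 in control and 1261, 1548 and 1094 in IL-10, with both replicate 2 libraries highest. Its level is uncertain: 82.1% of its transcript lies over NRDE2 on the opposite strand, strand use in counting is not given in the sources used here, and 13 pseudogenes carry its name in the annotation.

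Of the other 11 subunits of the 19S cap 7 were above 0, with a median of 0.08 and none past the test. PSMD3, a structural subunit of the lid (chr17:39980797-39997960, plus strand), was highest of them per kilobase, at 3436 ± 661 in control and 4398 ± 2453 in IL-10 cells. Its normalised reads were 6721, 9055 and 6469.8 in control and 6720.4, 15594 and 6157 in IL-10. IL-10 replicate 2 was far above every other library, and IL-10 replicates 1 and 3 did not exceed control replicate 1. The log2 difference was 0.24 (interval -0.52 to 1.00), -0.19 without IL-10 replicate 2 and -0.04 without both replicate 2 libraries. PSMD12, another lid subunit and the lowest of the 11 per kilobase, read 2612, 3169 and 2554 in control and 2698, 2417 and 2507 in IL-10. Here IL-10 replicate 2 was the lowest library.

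The deubiquitinase PSMD14, which cuts ubiquitin chains from the substrate, had a log2 difference of -0.07, and the ubiquitin receptor PSMD4 one of 0.19. PSMD2, which docks ubiquitin-like domains on the base, was at 0.20, and PSMD1, its partner scaffold, at -0.08. These 4 were chosen for their roles after values were known, and none passed the test (limma).

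Both subunits of the PA28 activator read slightly higher by the mean. PSME1 (chr14:24136158-24138967, plus strand) read 1956, 1959 and 1772 in control and 2063, 2636 and 1906 in IL-10. Its IL-10 replicates 1 and 2 were above every control and replicate 3 was not. PSME2 read 1155, 1326 and 948 in control and 1170.3, 1581 and 1025 in IL-10, with the groups overlapping more. The log2 difference was 0.20 for PSME1 (interval -0.19 to 0.59, adjusted p = 0.982, limma) and 0.13 for PSME2 (-0.35 to 0.61). PSMB8, PSMD4 and PSME1 were the 3 genes whose difference kept its sign under all 25 alternatives, with ranges of 0.04 to 0.33, 0.03 to 0.28 and 0.07 to 0.30. After adjustment for GC content and length the 3 values were 0.07, 0.06 and 0.08. The alternatives reuse the same libraries, and the share of all genes that kept their sign was not computed.

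Differences were also read within each replicate number. The closest libraries over the 36 genes were those of replicate 3 and replicate 1 (mean squared z of 3.06 and 5.49), whereas control and IL-10 replicate 2 were far apart (213). In replicate 1 the IL-10 library was higher in 29 of 36 genes (50.3% of all genes), by a median of 0.08 on the log2 scale, and 34 of the 36 differed by less than 0.2. In replicate 3 it was higher in 10 of 36 (50.4% of all genes), by a median of -0.03, and 35 differed by less than 0.2. Replicate 2 was of another size: 24 of 36 were higher (51.2% of all genes), the median was 0.40, and 8 differed by less than 0.2. The majority direction thus differed between replicates 1 and 3. With those 2 pairs alone and the replicate number as a block, 11 of 20308 genes passed the adjusted threshold (limma, 0.0542%), and 0 of the 36, whose median was 0.02.

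**Figure D3:**
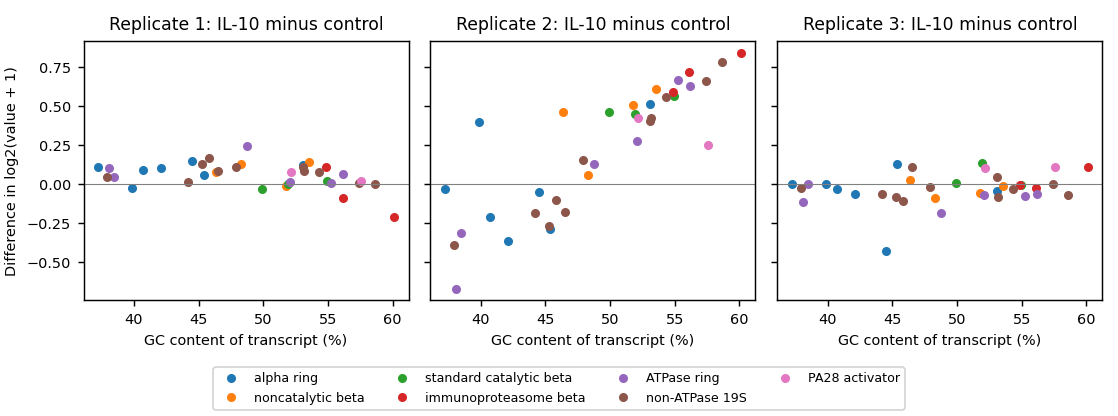
Difference in log2(value + 1) between the IL-10 and control library of the same replicate number, against the GC content of the gene's transcript, for the 36 genes coloured by sub-complex. Replicate 1 lies between -0.21 and 0.24 and replicate 3 between -0.43 and 0.13, whereas replicate 2 climbs from -0.67 for PSMC6 to 0.85 for PSMB10.

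Within IL-10 replicate 2 the proteasome genes separated by base composition. It was the highest of the 6 libraries in 23 of 36 genes (31.1% of all genes) and the lowest in 6 (29.4% of all genes), namely PSMA1, PSMA3, PSMA4, PSMC6, PSMD12 and PSMD14. GC content ran from 37.2% in PSMA5 to 60.1% in PSMB10. In each of the 18 genes of at least 50% GC this library was the highest of all, with a median excess of 0.75 (log2) over the mean of the other 5. In the 18 genes under 50% it was highest in 5 (PSMB1, PSMB2, PSMB7, PSMC1 and PSMD11), lowest in the 6 named, and the median was 0.09. The 50% line was set after values were seen.

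Over all genes with a mean of at least 50 normalised reads, the 5454 of at least 50% GC had a median excess of 0.58 in this library and the 6121 under it had -0.30, so the proteasome genes read higher than all genes on both sides of the line, a difference that was not tested. Over the 36 genes the Spearman correlation of the excess with GC content was 0.83, against 0.77 over 11575 genes, and that of the replicate 2 difference was 0.87 against 0.84, points that share the same libraries. In replicates 1 and 3 the difference gave -0.33 and 0.14 over the 36. The largest excesses were those of PSMD3 (1.16), PSMC4 (1.05) and PSMC3 (0.97), at 58.6%, 55.2% and 56.2% GC, and the smallest those of PSMC6 (-0.55), PSMA4 (-0.20) and PSMA3 (-0.17). After each library was adjusted for its trend with GC content and length the median log2 difference of the 36 was 0.05, with none past the test, and PSMC6 moved to -0.04, PSMD3 to 0.05 and PSMB10 to 0.04. The same adjustment took PSMA5 from 0.03 to 0.24 and PSMA2 from 0.12 to 0.27.

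**Figure D4:**
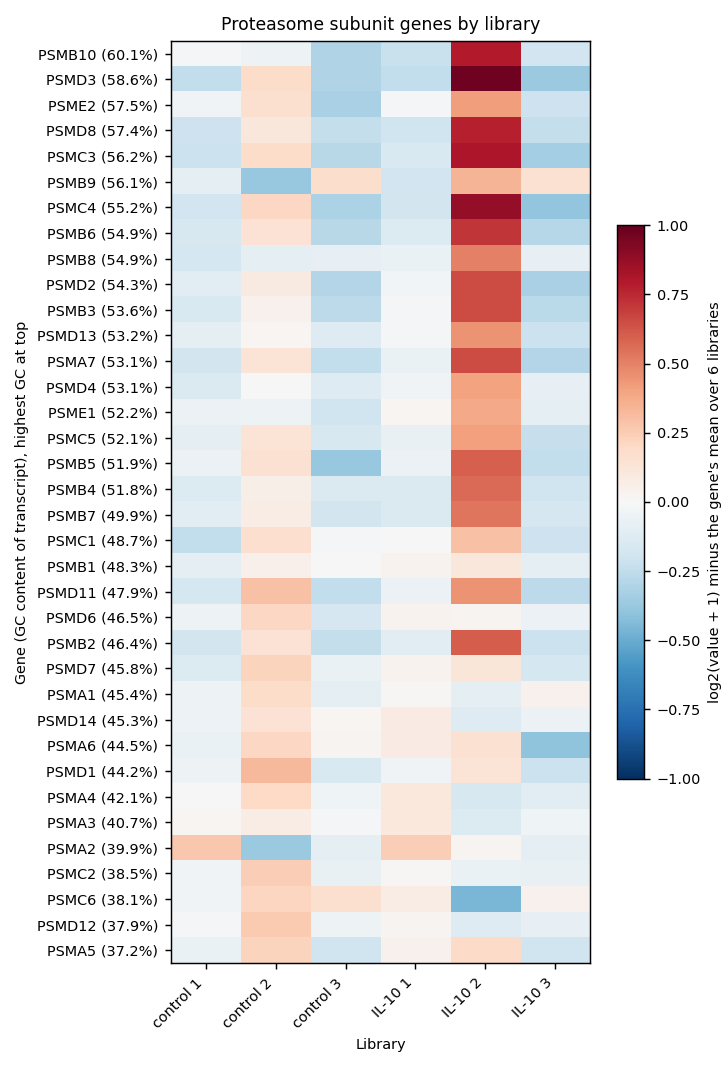
Deviation of each gene in each library from its mean over the 6 libraries, in log2(value + 1), with genes ordered by GC content of the transcript (given in brackets). IL-10 replicate 2 is high in the upper, GC-rich rows, with PSMD3 the darkest, and low in PSMC6, while control replicate 2 is moderately high in most rows.

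A second pattern was that most of the 36 genes read higher in both replicate 2 libraries. In control replicate 2 this did not follow base composition. Control replicate 2 was the highest of the 3 control libraries in 32 of 36 genes, against 38.7% of all genes. The 4 exceptions were PSMA2 and the 3 immunoproteasome catalytic subunits, PSMB8, PSMB9 and PSMB10. Against the mean of controls 1 and 3 it was higher in 34 of 36, by a median of 0.27. Over 11604 genes with a mean of at least 50 normalised reads it was higher in 53.0%, with a median of 0.02. The genes of at least 50% GC and those under it gave medians of 0.27 and 0.28, the Spearman correlation with GC content was 0.13, and after adjustment for GC content and length it was 0.28.

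For IL-10 replicate 2 the median against IL-10 replicates 1 and 3 was 0.50 as deposited, with 28 of 36 higher (all genes 0.09, with 54.6% higher). After adjustment it was 0.43, with 32 of 36 higher (all genes 0.06, with 55.5% higher). By gene, the excess in control replicate 2 was 0.35 for PSMA7, 0.37 for PSMB5 and PSMB6, 0.46 for PSMC4 and PSMD3 and 0.51 for PSMD11. The values for PSMB8, PSMB9 and PSMB10 were 0.04, -0.42 and 0.11, and for PSMA2 -0.46. By gene the 2 libraries did not always go together. In IL-10 replicate 2, as deposited, the excess of PSMB8, PSMB9 and PSMB10 was 0.58, 0.36 and 1.00. PSMA1, PSMA3, PSMA4, PSMC2, PSMC6, PSMD12 and PSMD14 were above the other controls in control replicate 2. In IL-10 replicate 2, as deposited, they were below the other IL-10 libraries. Agreement between the 2 excesses by gene was not tested. The hepatocyte genes given above were raised in the same 2 libraries, and their part in this pattern was not tested.

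Genes that work with the proteasome showed no change past the test either. Of 9 assembly factors 0 passed and 5 were above 0, with a median log2 difference of 0.02. The chaperones PSMG1 and PSMG2, which assemble the alpha ring, were at 0.03 (interval -0.38 to 0.44) and 0.02 (-0.31 to 0.34). Of 7 further subunits and caps 5 were tested, 0 passed and the median was 0.21, with the nuclear cap PSME3 at 0.21 (-0.54 to 0.97) and the ubiquitin receptor ADRM1 at 0.31 (-0.55 to 1.18).

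Of 17 genes for ubiquitin, its activation, delivery and removal 0 passed, 10 were above 0 and the median was 0.14. The ubiquitin precursor RPS27A, fused to a ribosomal protein, was at -0.01 (-0.38 to 0.35). Of 5 regulators of proteasome transcription 0 passed, 3 were above 0 and the median was 0.20. NFE2L1, which drives transcription of proteasome genes, was at 0.21 (-0.29 to 0.70) and its partner MAFG at 0.20 (-0.33 to 0.74). NFE2L2, named after its values were known, was at -0.31 (-0.91 to 0.29). Within replicates 1, 2 and 3 NFE2L1 differed by 0.01, 0.60 and 0.02, and NFE2L2 by -0.03, -0.99 and 0.09.

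Among 12 genes of peptide loading, MHC class I and its interferon-driven control, the setting in which the immunoproteasome works, 0 passed and 10 were above 0, with a median of 0.19. B2M, the light chain of MHC class I, was at 0.00 (-0.36 to 0.36) and HLA-E at 0.22 (-0.25 to 0.69). IRF1, which drives PSMB9 and TAP1 after interferon, was at 0.39 (-0.25 to 1.03), with -0.10, 1.10 and 0.17 within replicates 1, 2 and 3, and was named after its values were known. Without IL-10 replicate 2 the medians of these 5 lists, in the order given, were -0.02, -0.10, -0.05, -0.03 and 0.05. Control replicate 2 stayed in for these medians.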

How the data were processed

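Trizol was used to extract total RNA, and libraries were prepared with Illumina's TruSeq RNA chemistry, per the labels' protocols. The authors deposited a normalised signal: read counts that were each divided by the library's own size factor, which is visible in the steps between values, although the table is named otherwise. Whole reads were recovered from 100% of the values within 0.01 of a read. An automatic check accepted the step of 5 libraries and not that of control replicate 2, so the count test was also run on those 5. The submitters' processing notes name edgeR 3.18.1 and the build GRCh38 (hg38), with no role. Not given in the sources used here are the aligner, the counting tool, its gene models and whether strand was used.

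Genes were matched by Ensembl ID: 26883 of 27576 had a symbol and 27052 an entry in GENCODE 29. Values were tested as log2 of value plus a pseudocount of 1 with limma 3.58.1 (R 4.3.3), intensity trend on, over the 21946 genes that reached a value of 1 in 3 or more libraries, 3 control against 3 IL-10 libraries, two-sided, with Benjamini-Hochberg adjustment and a threshold of 0.05. All 36 proteasome genes passed this filter. For a single value an exact permutation test of 3 against 3 libraries cannot go below p = 0.10, so none was run. Length and GC content came from the principal transcript (APPRIS, then transcript support, then RefSeq match, then length). The pipeline was tested on simulated data, drawn with no GC trend, no replicate effect and no library that stood apart. That test therefore does not give the power or error rate in these libraries.

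Alternatives were the pseudocount, the filter, scaling, sample weights, an adjustment for GC content and length, the replicate number as a block, edgeR 4.0.16 and DESeq2 1.42.0 on recovered reads (a count test), and each library left out in turn. Levels per kilobase were rerun with each control library left out, not each IL-10 library. Replicate numbers in the titles were taken to pair the libraries, because deviations from the group means correlated within all 3 numbers (0.37, 0.61 and 0.73 over 11605 genes). Other positive correlations, 0.21 and 0.18, joined replicates 1 and 3 across groups.

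The proteasome genes and all lists were chosen with earlier results of these data known. Library values are printed for the 6 catalytic subunits, PA28, the highest, lowest and most different gene of each other sub-complex, the 3 genes of smallest p, and the 3 of largest and smallest deviation in IL-10 replicate 2. Of each pathway list the 2 genes of highest mean value are named, except 1 that is not reported here. The motifs, the printed windows and the 50% GC line were chosen after values were seen.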

Additional observations from a re-analysis of the deposited data

How the results depend on the processing

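None of the 36 genes passed the adjusted threshold under any of the 25 alternatives, and no gene of the table did under 24 of them: 11 passed when the replicate block was fitted to replicates 1 and 3 alone. With the replicate block on all 3 pairs 0 genes passed (512 unadjusted, against 344), and the median of the 36 stayed at 0.14. In that pairing with GC and length correction 1 of the 36 had an unadjusted p under 0.05, against 880 of 21946 genes. Sample weights gave 0 passing genes and 2519 unadjusted, and no intensity trend 0 and 763. Leaving out each library in turn gave medians of -0.07 to 0.25, and edgeR on the 5 libraries without control replicate 2 gave 0.22, with 29 of 36 above 0. Over all 25 alternatives 121 of 900 gene comparisons changed sign, in 33 of the 36 genes.

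Levels depended on the length used. With merged exon length the control medians per kilobase were 453 for the alpha ring, 2013 for noncatalytic beta, 1261 for standard catalytic, 88.1 for immunoproteasome, 836 for ATPase, 518 for other 19S and 692 for PA28 genes. With coding length, an alternative added after seeing the data, they were 2996 (alpha ring), 6208 (noncatalytic beta), 2547 (standard catalytic), 2434 (ATPase), 2734 (other 19S) and 2066 (PA28). The log2 ratio of PSMB8 to PSMB5 was -0.64 (control) and -0.60 (IL-10) with merged exons and 0.092 (IL-10) with coding length. That of PSMB9 to PSMB6 was -4.18 and -4.17 with merged exons. That of PSMB10 to PSMB7 was -5.09 and -4.99 with merged exons and -5.02 and -4.92 with coding length. These moves follow from the lengths themselves, since the reads are the same. Depth limits PSMA2 and PSMA6 most, with 52 to 97 reads per library.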
